A study of Mus musculus with 40 samples.

Results

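β-catenin, encoded by Ctnnb1, and 9 genes known as its targets or partners were followed in 3 mouse melanoma lines: Axin2, Lef1, Tcf7, Tcf7l2, Nkd1, Notum, Sp5, Rnf43 and Znrf3. These 10 genes were picked by name and were found by matching the Ensembl identifiers of the count table to mouse symbols. They are 10 of 51789 genes in the table, of which 27946 had at least 1 count. RNA of cultured cells was read by QuantSeq 3′ sequencing in 40 libraries, 2 for each of 20 groups.

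YUMM2.1 is a line from transgenic mouse melanomas whose alleles include mutant Braf, Cdkn2a+/- and Bcat STA/+, the last being a heterozygous stabilised form of β-catenin. All YUMM2.1 groups, including their controls, therefore carry this allele. The YUMM2.1 groups without a hairpin were transduced with a GFP lentivirus that was empty (EV) or coded for wild-type Bmal1 (WT-Bmal1) or for Bmal1 without its basic helix-loop-helix domain (dHLH-Bmal1), and were sorted for GFP. aC3 is a single Bmal1-null clone of YUMM2.1 made with CRISPR, and it received the same 3 constructs, so that its EV control also lacks Bmal1. YUMM1.7, a melanoma line whose genotype is not given in the sources used here, received them too. Under these names the study describes YUMM2.1 and aC3 cells that already held a blasticidin-selected luciferase reporter of the Bmal1 promoter. It states this again for aC3 EV, and whether all libraries came from such cells is not given. The YUMM2.1 cells of each construct also form 9 further groups, which carry a puromycin-selected hairpin that is a scramble control (shNC) or is directed at Myh9, the non-muscle myosin IIA heavy chain (shMyh9#2 or shMyh9#4). B16-F10, a mouse melanoma line, was read as a Ctrl clone and a clone labelled Bmal1 KO. The study calls the libraries of B16-F10 and of YUMM2.1, with and without a hairpin, biological replicates. It uses the same words for YUMM1.7 libraries set beside YUMM2.1, without naming their construct. The sources used here do not say this for aC3 or for the Bmal1 constructs in YUMM1.7. The spread between those libraries may be technical. Each of the B16-F10 groups and aC3 is 1 clone, so p-values measure the spread between libraries of 1 line or clone.

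In the canonical Wnt pathway, a destruction complex built on Axin and Apc marks β-catenin for degradation. When a Wnt ligand binds a Frizzled receptor and its Lrp co-receptor, the complex is held back, and β-catenin enters the nucleus and binds the TCF/LEF factors, which carry it to its target genes. Several targets act back on the pathway. Axin2 rebuilds the destruction complex, Nkd1 binds Dishevelled, Notum is a secreted enzyme that removes the lipid from Wnt ligands, and Rnf43 and Znrf3 are membrane ubiquitin ligases that clear Frizzled receptors. Sp5 is a transcription factor induced in many tissues by Wnt. A stabilising mutation of β-catenin acts on the protein, which these RNA counts do not measure, and the counts per gene do not tell the mutant transcript from the normal one. In the melanocyte lineage, Wnt signalling through β-catenin is known for its role in melanocyte formation and for Mitf as a target.

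The sequences upstream of the start sites were searched for the letters to which TCF/LEF factors are known to bind, and matches were about as frequent as in all promoters. RefSeq starts on GRCm38.p6 gave 15 windows of 250 upstream bases for 8 of the 10 genes, with none for Notum and Znrf3. The core CTTTGA was searched on both strands, where it reads TCAAAG on the reverse strand, together with the E-box CACGTG that Bmal1 with Clock is known to bind. CTTTGA was present in 2 of the 15 windows, 1 of Sp5 and 1 of Lef1, and in 13.8% of all 32851 windows of this length. CACGTG was present in 1 of the 15 windows, the same one of Lef1, and in 6.02% of all windows. The 2 windows with the TCF/LEF core are shown because they hold the only matches among the listed genes, with the core in capitals.
Sp5, chr2:70474673-70474922, plus strand: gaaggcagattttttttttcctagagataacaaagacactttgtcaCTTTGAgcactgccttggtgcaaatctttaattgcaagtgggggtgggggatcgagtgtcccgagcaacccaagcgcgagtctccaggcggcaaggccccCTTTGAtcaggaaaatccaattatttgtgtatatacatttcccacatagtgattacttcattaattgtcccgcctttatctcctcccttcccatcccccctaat
Lef1, chr3:131156044-131156293, plus strand: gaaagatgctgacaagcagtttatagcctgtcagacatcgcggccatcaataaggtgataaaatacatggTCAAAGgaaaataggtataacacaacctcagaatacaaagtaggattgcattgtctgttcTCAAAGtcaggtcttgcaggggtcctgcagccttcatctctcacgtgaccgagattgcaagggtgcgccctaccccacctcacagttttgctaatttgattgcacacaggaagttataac
The Sp5 matches lie 204 to 199 and 104 to 99 bases before the start. The Lef1 window belongs to a start inside the Lef1 gene and is intronic in the GENCODE M21 annotation. Its matches lie 180 to 175 and 120 to 115 bases before that start, and its CACGTG lies 79 to 74 bases before it and overlaps neither. A match is a description of the letters only. Sp5 had no count in these libraries, as shown next, so no level can be set beside its window.

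Library totals ranged from 3643332 to 22970049 counts with a median of 10021164.5. Levels are CPM, counts scaled to a common library size, after edgeR's TMM scaling over all 40 libraries. QuantSeq reads the 3′ end of a transcript, so longer transcripts do not gain counts. CPM of different genes are set side by side on that ground only. Whether 3′ ends of different genes are read equally well was not tested. A count of 3 corresponded to 0.123 to 0.849 CPM, depending on the library, and intervals and floors given here cover counting error only. The test of a difference was the quasi-likelihood one of edgeR, adjusted after Benjamini and Hochberg over all genes tested, named the edgeR adjusted p, with SE for the standard error of a log2 difference, and a gene was called at an edgeR adjusted p under 0.05. No permutation test was run, because 2 libraries against 2 allow no two-sided p below 0.333.

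The library labelled YUMM2.1-EV replicate 2 and the one labelled YUMM2.1-WT replicate 1 stood apart from their groups. Over 8691 genes, the 2 libraries labelled EV had 225 genes at least 2-fold apart, against 18 between EV replicate 1 and WT replicate 1 and 23 between EV replicate 2 and WT replicate 2. In a per-library table published with the study, the columns for these libraries match each other's deposited counts. Results that rest on YUMM2.1 EV or WT-Bmal1 are given as labelled, and with the labels exchanged or both libraries removed where these change a call. Arntl, which encodes Bmal1, did not separate the B16-F10 groups at 13.0 ± 3.24 CPM in Ctrl and 12.4 ± 1.39 CPM in Bmal1 KO (SD, n = 2 each). In EV cells Myh9 was lower with both hairpins, at 681 ± 22.7 CPM in EV shNC, 239 ± 10.01 in EV shMyh9#2 and 481 ± 8.67 in EV shMyh9#4 (SD, n = 2 each). Summed over 7 melanocyte genes (Mitf, Sox10, Pmel, Tyr, Tyrp1, Dct and Mlana), the level was 19656 to 26032 CPM in B16-F10, 81.1 to 556 in YUMM2.1, 450 to 620 in aC3, 10.7 to 14.8 in YUMM1.7 and 31.8 to 349 in the hairpin libraries. Tyrp1, Dct and Mlana were at 0 in all YUMM2.1, aC3 and YUMM1.7 libraries without a hairpin, so the pigment cell identity of these lines is not visible in those defining genes. A mesenchymal list (Sox9, Axl, Fn1, Col1a1 and Snai2) summed to 69.4 to 157 CPM in B16-F10, 565 to 2246 in YUMM2.1, 536 to 642 in aC3, 1721 to 1906 in YUMM1.7 and 931 to 2364 with a hairpin. Keratinocyte markers reached 0.485 CPM at most, endothelial markers ranged from 3.79 to 26.5 CPM and leukocyte markers from 0.357 to 3.91 CPM, and their part in the results was not tested.

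The 10 genes spanned abundant to unread. Ctnnb1 (chromosome 9, 120929216 to 120960507, GRCm38, plus strand) was the most abundant, at 245 to 1096 CPM over the 40 libraries with a median of 342. Tcf7l2 (chromosome 19, 55741820 to 55933654, plus strand), a TCF factor, followed at 33.4 to 92.0 CPM with a median of 52.0. Znrf3 (chromosome 11, 5276324 to 5444847, minus strand) had 2.33 to 19.3 CPM.

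The other measured members were close to the floor. Axin2 (chromosome 11, 108920349 to 108950783, plus strand) reached 12.2 CPM and had a median of 1.48. Tcf7 (chromosome 11, 52252371 to 52283014, minus strand) had 0.429 to 5.84 CPM, and Lef1 (chromosome 3, 131110471 to 131224356, plus strand) had 0 to 5.97 CPM. The negative regulators and targets that mark strong Wnt responses in other tissues were nearly unread. Rnf43 (chromosome 11, 87662722 to 87735539) and Sp5 (chromosome 2, 70474923 to 70477729) had 0 counts in 40 of 40 libraries, which allows up to 0.123 to 0.849 CPM depending on the library. Nkd1 (chromosome 8, 88521354 to 88594884) had 2 counts in all, in 2 libraries. Notum (chromosome 11, 120653788 to 120661175) had 92 counts in all and was at 0 in 16 libraries, with its highest values of 1.41 and 0.470 CPM in YUMM2.1 dHLH-Bmal1, from 15 and 4 counts. Nkd1, Notum, Sp5 and Rnf43 did not pass the filter on low counts in the fits by line, Lef1 was not tested within B16-F10 and aC3, and Axin2 was not tested within YUMM1.7. Thus 5 or 6 of the 10 genes were tested in a comparison, and 7 in the fit of all 40 libraries, where Notum passed. Ctnnb1, Axin2, Lef1, Tcf7, Tcf7l2, Nkd1, Notum and Rnf43 overlap another annotated gene, and whether counting used strand is not given in the sources used here.

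B16-F10 Ctrl was the highest of the line controls in both Ctnnb1 and Axin2, while YUMM2.1 EV and YUMM1.7 EV were called different in Axin2 and not in Ctnnb1. Ctnnb1 measured 1054 and 1096 CPM in the B16-F10 Ctrl libraries and 1003 and 1054 CPM in B16-F10 Bmal1 KO. It measured 413 and 440 CPM in YUMM1.7 EV, YUMM2.1 EV had 399 and 387 CPM, and aC3 EV had 371 and 364 CPM. Every B16-F10 library was above every library of the other lines, and both YUMM2.1 EV libraries, which carry the stabilised allele, were below both YUMM1.7 EV libraries. In one fit of the 22 libraries without a hairpin, Ctnnb1 was higher in B16-F10 Ctrl than in YUMM1.7 EV by 1.34 on the log2 scale (SE 0.081, edgeR adjusted p = 5.3e-10). Against YUMM2.1 EV it was higher by 1.44 (SE 0.082, edgeR adjusted p = 2.4e-10). Between YUMM2.1 EV and YUMM1.7 EV the edgeR adjusted p of Ctnnb1 was 0.40, so that order was not called. The SD over the 2 libraries of a group without a hairpin was at most 36.0 CPM.

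Axin2, the target most often read as a sign of β-catenin activity, separated YUMM2.1 from YUMM1.7 at low counts. It measured 12.2 and 8.33 CPM in B16-F10 Ctrl and 2.17 and 1.30 CPM in YUMM2.1 EV. aC3 EV had 1.77 and 1.56 CPM, and YUMM1.7 EV had 0.266 and 0 CPM. The YUMM1.7 EV values rest on 3 counts in all and those of YUMM2.1 EV on 38 counts, and no library of YUMM2.1 EV overlapped with YUMM1.7 EV. The ratio of YUMM2.1 EV over YUMM1.7 EV was 13.1, with a 95% exact interval of 4.16 to 66.4 from the counts. In the fit, Axin2 was higher in YUMM2.1 EV by 3.62 on the log2 scale (SE 0.89, edgeR adjusted p = 0.0046). Without YUMM1.7-EV replicate 2, which had no Axin2 count, the difference was 2.67 and was no longer called (edgeR adjusted p = 0.057), and without YUMM1.7-EV replicate 1, which held all 3 counts, the fitted value was 7.49. B16-F10 Ctrl exceeded YUMM1.7 EV by a ratio of 75.2 (95% exact interval 25.6 to 366, on 426 and 3 counts) and by 6.14 on the log2 scale (SE 0.78, edgeR adjusted p = 5.4e-06), which ranged from 5.2 without YUMM1.7-EV replicate 2 to 10.004 without its replicate 1. B16-F10 Ctrl also exceeded YUMM2.1 EV by 2.52 (SE 0.55, edgeR adjusted p = 0.0012).

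**Figure D1:**
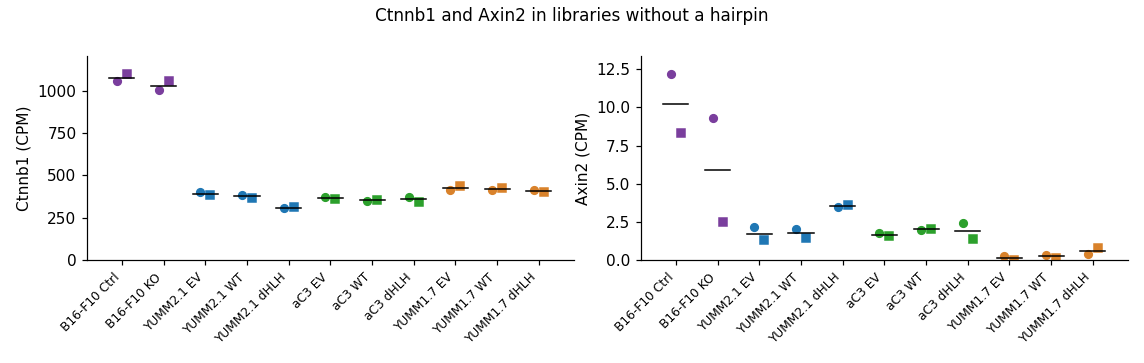
Levels of Ctnnb1 and Axin2 in CPM (vertical axes, linear from 0) in the 11 groups without a hairpin (horizontal axis), with a circle for replicate 1, a square for replicate 2 and a line for the mean. Ctnnb1 lies between 1003 and 1096 CPM in the 4 B16-F10 libraries and at 440 CPM or less in the others, and Axin2 is at 0 to 0.813 CPM in YUMM1.7.

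Lef1, a TCF/LEF factor that is itself a target, had 0 counts in both B16-F10 Ctrl libraries. It measured 3.28 and 3.18 CPM in YUMM1.7 EV, 0.501 and 1.30 CPM in YUMM2.1 EV, compared with 0.266 and 0.184 CPM in aC3 EV. Among these 4 controls Lef1 had its highest mean in YUMM1.7 EV, where Axin2 had its lowest. In the same fit Lef1 was called lower in B16-F10 Ctrl than in YUMM1.7 EV (at least 22.3-fold against a floor of 3 counts in each library, edgeR adjusted p = 9.2e-05). It was also called lower in B16-F10 Ctrl than in YUMM2.1 EV (at least 6.22-fold, edgeR adjusted p = 0.0025). Between YUMM2.1 EV and YUMM1.7 EV, Lef1 had a log2 difference of -1.85 (SE 0.80, edgeR adjusted p = 0.090). That difference was called with the YUMM2.1 labels exchanged, at -3.20 (edgeR adjusted p = 0.0031).

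Tcf7, which encodes TCF1, measured 1.39 and 1.45 CPM in B16-F10 Ctrl and 1.60 and 0.841 CPM in YUMM1.7 EV. In YUMM2.1 EV it measured 4.01 and 1.73 CPM, so the 2 libraries were further apart than the groups. As labelled it was called in no comparison of lines, with a log2 difference of 1.26 between YUMM2.1 EV and YUMM1.7 EV (SE 0.57, edgeR adjusted p = 0.11). With the labels exchanged it was called there at 1.53 (edgeR adjusted p = 0.031) and against B16-F10 Ctrl at -1.31 (edgeR adjusted p = 0.036), and without YUMM2.1-EV replicate 2 the difference from YUMM1.7 EV was called at 1.73 (edgeR adjusted p = 0.0498).

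Tcf7l2 was the most even of the 3 factors over the controls of the lines. It measured 62.1 and 56.1 CPM in B16-F10 Ctrl, 56.9 and 53.5 CPM in YUMM1.7 EV, and YUMM2.1 EV had 50.2 and 50.5 CPM. aC3 EV was the lowest, at 33.4 and 37.9 CPM. The log2 difference of aC3 EV from YUMM2.1 EV was -0.48 (SE 0.12, edgeR adjusted p = 0.052), so it was not called. DESeq2's Wald test gave an adjusted p of 0.015 and the fit of all 40 libraries an edgeR adjusted p of 0.016 for the same difference.

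Znrf3, the only ligase of its pair with counts, measured 19.3 and 15.6 CPM in B16-F10 Ctrl, 10.9 and 9.62 CPM in YUMM1.7 EV and 12.6 and 6.49 CPM in YUMM2.1 EV. B16-F10 Ctrl was above both other controls in each library, but the differences were not called, at 0.77 against YUMM1.7 EV (SE 0.51, edgeR adjusted p = 0.23) and 0.84 against YUMM2.1 EV (SE 0.51, edgeR adjusted p = 0.19). Without the filter on low counts both were called, at edgeR adjusted p = 0.021 and 0.0081. Replicate 2 was below replicate 1 in Znrf3 in 10 of 11 groups without a hairpin and in 2 of 9 groups with one.

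Counted over the listed genes, 3 of 6 tested were called between B16-F10 Ctrl and YUMM1.7 EV, where 49.6% of all genes tested were called. Likewise 3 of 6 were called between B16-F10 Ctrl and YUMM2.1 EV, against 48.9% of all genes, and 4 of 6 with the labels exchanged, against 50.1%. Between YUMM2.1 EV and YUMM1.7 EV, 1 of 6 was called against 32.7% of all genes, and 3 of 6 with the labels exchanged against 36.5%. Between aC3 EV and YUMM2.1 EV, 0 of 6 were called against 1.95%. The shares against B16-F10 Ctrl are close to those of all genes. At an unadjusted p under 0.05 there were 3, 3, 3 and 1 of the 6 listed genes in these comparisons, in the order given.

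**Figure D2:**
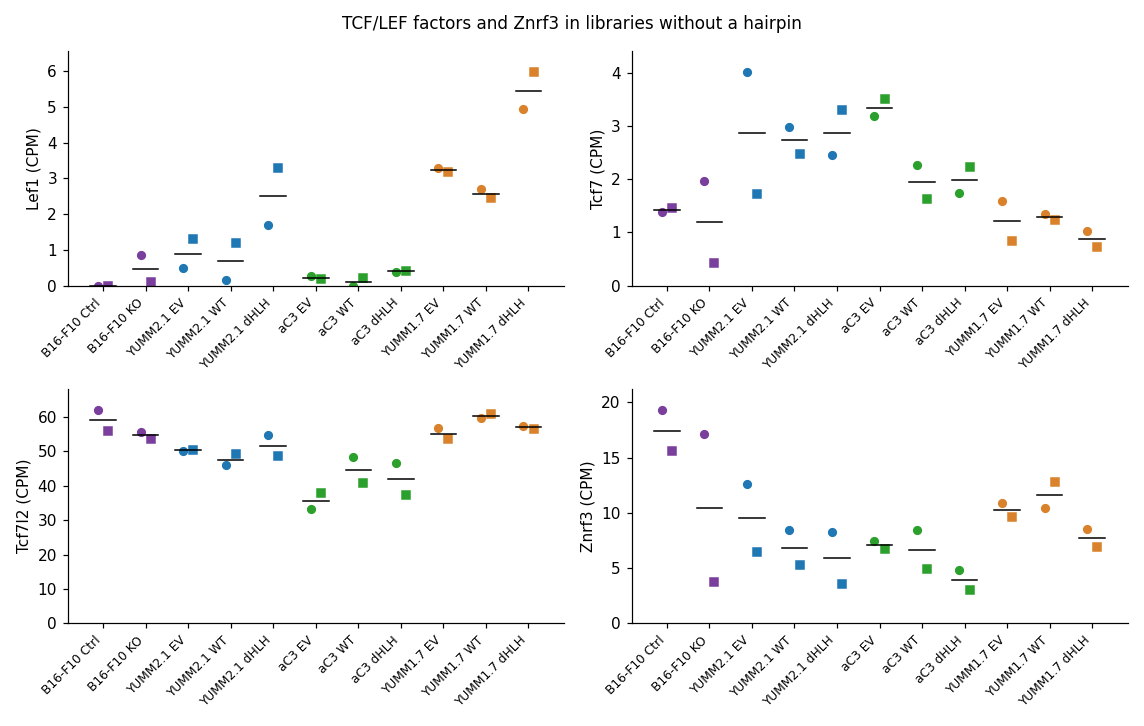
Levels of Lef1, Tcf7, Tcf7l2 and Znrf3 in CPM (vertical axes, linear from 0) in the 11 groups without a hairpin, with a circle for replicate 1, a square for replicate 2 and a line for the mean. Lef1 is at 0 in both B16-F10 Ctrl libraries and reaches 5.97 CPM in YUMM1.7 dHLH-Bmal1, and Znrf3 is at 17.1 and 3.72 CPM in the 2 B16-F10 Bmal1 KO libraries.

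The comparison of B16-F10 Bmal1 KO with Ctrl asks what the loss of Bmal1 changes. Of the listed genes 0 of 5 tested were called by edgeR, with 0.44% of all genes called, and 0 of 5 had an unadjusted p under 0.05. Tcf7l2 measured 55.7 and 53.7 CPM in Bmal1 KO, next to 62.1 and 56.1 CPM in Ctrl. The 2 Bmal1 KO libraries disagreed in the low genes. Axin2 measured 9.30 and 2.48 CPM, from 226 and 52 counts, Znrf3 17.1 and 3.72 CPM, from 416 and 78 counts, and Tcf7 1.97 and 0.429 CPM, from 48 and 9 counts. Replicate 1 was close to the Ctrl libraries in Axin2 and Znrf3, and replicate 2 lay below them, although the totals of the 2 libraries were 22970049 and 21282282 counts. The log2 fold change was -0.80 for Axin2 (SE 0.60, edgeR adjusted p = 0.62) and -0.75 for Znrf3 (SE 0.65, edgeR adjusted p = 0.66). Without Bmal1 KO replicate 1 these became -2.04 (edgeR adjusted p = 5.8e-11) and -2.22 (edgeR adjusted p = 2.6e-18), so the call rests on which library is kept. Lef1 had 21 and 2 counts in Bmal1 KO against 0 in Ctrl. The mean of the Bmal1 KO libraries was at least 3.32-fold higher by the floor, but replicate 2 alone, at 0.0954 CPM, lay below that floor. Lef1 was not tested in the B16-F10 fit. In the fit of all 40 libraries its edgeR adjusted p was 0.012. In the B16-F10 fit it was 0.24 without the filter on low counts, and 0.010 without Bmal1 KO replicate 2, the library with 2 counts.

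In aC3, the constructs ask what returning Bmal1, or a form without its DNA-binding domain, does to a Bmal1-null clone. Of the listed genes 0 of 5 tested were called with WT-Bmal1 against EV, where 11.2% of all genes were called, 0 of 5 with dHLH-Bmal1 against EV (10.9%), and 0 of 5 between WT-Bmal1 and dHLH-Bmal1 (0.877%). At an unadjusted p under 0.05 there was 1 of 5 in each, Tcf7l2 in the first and Znrf3 in the others. Ctnnb1 lay at 345 to 371 CPM in all 6 libraries, and Axin2 at 1.38 to 2.43 CPM. Tcf7l2 measured 33.4 and 37.9 CPM in EV, 48.3 and 40.8 CPM with WT-Bmal1 and 46.6 and 37.5 CPM with dHLH-Bmal1. WT-Bmal1 lay above EV without overlap, at a log2 fold change of 0.31 (SE 0.13, edgeR adjusted p = 0.15). Znrf3 measured 7.45 and 6.72 CPM in EV and 4.85 and 2.97 CPM with dHLH-Bmal1. The log2 fold change was -0.86 (SE 0.31, edgeR adjusted p = 0.098), and 8.40 and 4.90 CPM were measured with WT-Bmal1. WT-Bmal1 was above dHLH-Bmal1 in Znrf3 by 0.76 (SE 0.32, edgeR adjusted p = 0.35). Without the filter on low counts, the difference between dHLH-Bmal1 and EV was called (edgeR adjusted p = 0.030).

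In YUMM2.1, which keeps its own Bmal1, the same constructs were added. WT-Bmal1 against EV gave 0 of 6 listed genes called and 0% of all genes by edgeR, while 98 genes had an unadjusted p under 0.05, none of them a listed gene, and DESeq2 called 1 gene. With the labels exchanged 0.705% of all genes were called and with both doubtful libraries removed 0.269%, and still 0 of 6 listed genes. Ctnnb1 measured 399 and 387 CPM in EV, 387 and 367 CPM with WT-Bmal1, and 308 and 312 CPM with dHLH-Bmal1. Both dHLH-Bmal1 libraries were below all 4 others. With dHLH-Bmal1 against EV the log2 fold change of Ctnnb1 was -0.32 (SE 0.11, edgeR adjusted p = 0.11), so it was not called as labelled. It was called with the replicate number as a block (edgeR adjusted p = 0.025), whose pairing depends on the labels in doubt. It was also called with the labels exchanged (-0.33, edgeR adjusted p = 0.030) and in the fit of all 40 libraries (edgeR adjusted p = 0.0068). With both doubtful libraries removed it was -0.36 (edgeR adjusted p = 0.44), where 1 EV library remained.

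Axin2 and Lef1 had higher values in both dHLH-Bmal1 libraries than in the other 4, on the opposite side to Ctnnb1, and neither was called as labelled. Axin2 measured 2.17 and 1.30 CPM in EV, 2.04 and 1.49 CPM with WT-Bmal1 and 3.49 and 3.65 CPM with dHLH-Bmal1, where the log2 fold change against EV was 1.04 (SE 0.43, edgeR adjusted p = 0.17). Lef1 measured 0.501 and 1.30 CPM in EV, 0.170 and 1.19 CPM with WT-Bmal1, and 1.7 and 3.29 CPM with dHLH-Bmal1, from 18 and 28 counts. The EV and WT-Bmal1 libraries of Lef1 fell into a low and a high value in each group as labelled. The log2 fold change of Lef1 with dHLH-Bmal1 was 1.51 as labelled (SE 0.86, edgeR adjusted p = 0.30), 2.85 with the labels exchanged (SE 0.67, edgeR adjusted p = 0.014) and 2.28 with both libraries removed (edgeR adjusted p = 0.15). Tcf7l2 measured 54.8 and 48.7 CPM with dHLH-Bmal1, which spans the EV values. Znrf3 measured 8.30 and 3.53 CPM with dHLH-Bmal1 and 12.6 and 6.49 CPM in EV, and the groups overlapped.

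With dHLH-Bmal1 against EV in YUMM2.1, 0 of 6 listed genes were called as labelled, against 13.2% of all genes, and 2 of 6 had an unadjusted p under 0.05, Ctnnb1 and Axin2. With the block 1 of 6 was called against 27.1%, and with the labels exchanged 2 of 6 against 28.7%. The difference between the dHLH-Bmal1 effects in YUMM2.1 and in aC3 was called for 0 of 6 genes (11.4% of all genes), with -0.30 for Ctnnb1 (SE 0.11, edgeR adjusted p = 0.11). The same difference between YUMM2.1 and YUMM1.7 was called for 0 of 6 (8.69%), with -0.27 for Ctnnb1 (SE 0.11, edgeR adjusted p = 0.17). In YUMM2.1 cells with shNC, Ctnnb1 measured 309 and 298 CPM with dHLH-Bmal1 and 301 and 293 CPM with EV, which overlapped. The dHLH-Bmal1 effect on Ctnnb1 in shNC cells minus that in cells without a hairpin was not called by edgeR. Its unadjusted p was under 0.05, and leaving out 1 library gave 0.344 to 0.394 on the log2 scale. Sox10, a melanocyte lineage factor, measured 495 ± 13.4 CPM in YUMM2.1 EV, against 69.0 ± 4.31 CPM with dHLH-Bmal1 (SD, n = 2 each), and Mitf, of the same list, 14.4 ± 0.174 CPM against 17.9 ± 4.19 CPM. Their part in these values was not tested.

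In YUMM1.7, 0 of 5 listed genes were called with WT-Bmal1 against EV (0.138% of all genes) and 0 of 5 with dHLH-Bmal1 against EV (0.63%), with 0 and 1 of 5 at an unadjusted p under 0.05. Ctnnb1 lay between 402 and 440 CPM in all 6 libraries. Axin2 had 0 to 0.411 CPM in 5 of the 6 libraries and 0.813 CPM in dHLH-Bmal1 replicate 2. Lef1 measured 3.28 and 3.18 CPM in EV, 2.69 and 2.46 CPM with WT-Bmal1, and 4.93 and 5.97 CPM with dHLH-Bmal1, the highest group of all 20. Its log2 fold change with dHLH-Bmal1 was 0.76 (SE 0.30, edgeR adjusted p = 0.36), so the shift seen in each library was not called. Lef1 was also higher in each dHLH-Bmal1 library than in each EV library of YUMM2.1 and of aC3, where dHLH-Bmal1 had 0.388 and 0.424 CPM against 0.266 and 0.184 CPM in EV.

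With hairpins, Tcf7l2 was the gene of the list that moved. In shNC cells it measured 36.8 and 41.8 CPM with EV, 92.0 and 91.8 CPM with WT-Bmal1, and 83.1 and 75.6 CPM with dHLH-Bmal1. Both constructs lay above EV by far more than the spread of the libraries. The log2 fold change was 1.22 for WT-Bmal1 (SE 0.12, edgeR adjusted p = 8.7e-07) and 1.02 for dHLH-Bmal1 (SE 0.12, edgeR adjusted p = 4.2e-06). Tcf7l2 was the 1 gene of 6 called in each comparison, where 22.3% and 26.4% of all genes were called. Without a hairpin the same constructs gave 46.04 to 54.8 CPM in YUMM2.1, so the constructs separated Tcf7l2 in the shNC cells and not in those cells. The difference between these effects was 1.28 for WT-Bmal1 (SE 0.16, edgeR adjusted p = 1.1e-05) and 0.95 for dHLH-Bmal1 (SE 0.16, edgeR adjusted p = 0.0014) in the fit of all 40 libraries. Tcf7l2 was the 1 gene of 7 called in both, against 7.53% and 1.82% of all genes. With the labels exchanged the differences were 1.16 (edgeR adjusted p = 2.7e-05) and 0.89 (edgeR adjusted p = 7.4e-04). The hairpin cells differ from the others at least in the hairpin vector and in puromycin. Whether both sets were grown and sequenced together is not given in the sources used here. These differences cannot be told apart here. Sox10 measured 330 ± 4.59 CPM with EV shNC, 99.6 ± 0.920 CPM with WT-Bmal1 shNC and 24.4 ± 2.44 CPM with dHLH-Bmal1 shNC (SD, n = 2 each). Mitf, of the same list, measured 15.4 ± 1.12, 19.95 ± 2.05 and 18.1 ± 0.162 CPM in the same order, and the part of both was not tested.

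Tcf7l2 was lower with shMyh9#2 than with shNC where a Bmal1 construct was present. Myh9 levels are given here for EV cells only, so no knockdown is shown here for the cells with a construct. With WT-Bmal1, Tcf7l2 went from 92.0 and 91.8 CPM in shNC to 38.4 and 41.2 CPM in shMyh9#2. With dHLH-Bmal1 it went from 83.1 and 75.6 CPM to 45.8 and 56.2 CPM. With EV it went from 36.8 and 41.8 CPM to 49.5 and 45.8 CPM, so that the 3 shMyh9#2 groups lay between 38.4 and 56.2 CPM. The fold change was -1.21 on the log2 scale with WT-Bmal1 (SE 0.12, edgeR adjusted p = 4.8e-06), -0.64 with dHLH-Bmal1 (SE 0.12, edgeR adjusted p = 0.018) and 0.28 with EV (SE 0.12, edgeR adjusted p = 0.20). The call with dHLH-Bmal1 was lost without shNC replicate 1 (-0.55, edgeR adjusted p = 0.33), without shNC replicate 2 (-0.69, edgeR adjusted p = 0.10) and without shMyh9#2 replicate 1 (-0.51, edgeR adjusted p = 0.17).

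The effect of shMyh9#2 on Tcf7l2 in EV cells exceeded that in WT-Bmal1 cells by 1.49 (SE 0.17, edgeR adjusted p = 2.4e-05) and that in dHLH-Bmal1 cells by 0.91 (SE 0.17, edgeR adjusted p = 0.0046). These comparisons share the EV libraries. The second difference was 0.81 without dHLH-Bmal1 shNC replicate 1 (edgeR adjusted p = 0.053). Each was called for 1 of 6 listed genes, against 5.18% and 3.29% of all genes. shMyh9#4, which left more Myh9 in EV cells, gave 41.5 and 42.5 CPM of Tcf7l2 with EV. It gave 79.2 and 75.4 CPM with WT-Bmal1 and 64.0 and 67.2 CPM with dHLH-Bmal1. With both constructs the shMyh9#4 libraries lay below shNC, without a call. The log2 fold change was -0.24 with WT-Bmal1 (SE 0.11, edgeR adjusted p = 0.43) and -0.27 with dHLH-Bmal1 (SE 0.12, edgeR adjusted p = 0.13).

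Counted by comparison, shMyh9#2 against shNC gave 0 of 6 listed genes called with EV (6.65% of all genes), 1 of 6 with WT-Bmal1 (4.76%) and 1 of 6 with dHLH-Bmal1 (0.559%). shMyh9#4 against shNC gave 0 of 6 with EV (1.71%), 0 of 6 with WT-Bmal1 (0.236%) and 0 of 6 with dHLH-Bmal1 (15.1%). Of all genes, more were called with shMyh9#2 than with shMyh9#4 in EV and WT-Bmal1 cells, and fewer in dHLH-Bmal1 cells. The reason was not tested. In the 4 comparisons without a call, 2, 0, 0 and 1 listed genes had an unadjusted p under 0.05, in the order given, and DESeq2 called 0. Ctnnb1 was even over the hairpin groups, with group means from 263 ± 25.3 CPM in dHLH-Bmal1 shMyh9#4 to 309 ± 6.18 CPM in WT-Bmal1 shNC (SD, n = 2 each). These means lie below the 393 ± 8.78 CPM of YUMM2.1 EV without a hairpin.

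Axin2 and Lef1 differed in opposite directions with shMyh9#2 in WT-Bmal1 cells, at low counts and without a call. Axin2 measured 0.682 and 0.239 CPM in WT-Bmal1 shNC and 1.9 and 2.2 CPM in WT-Bmal1 shMyh9#2, a log2 fold change of 2.14 (SE 0.84, edgeR adjusted p = 0.17). Lef1 measured 3.54 and 2.03 CPM in WT-Bmal1 shNC and 0.654 and 1.22 CPM in WT-Bmal1 shMyh9#2, a log2 fold change of -1.58 (SE 0.65, edgeR adjusted p = 0.19). In EV cells Lef1 measured 0.856 and 1.34 CPM with shNC and 3.06 and 3.83 CPM with shMyh9#2, a log2 fold change of 1.63 (SE 0.66, edgeR adjusted p = 0.16). None of these shifts was called, although the libraries of the groups did not overlap. The difference of the shMyh9#2 effects on Lef1 between EV and WT-Bmal1 cells was 3.21 (SE 0.92, edgeR adjusted p = 0.051). In dHLH-Bmal1 cells Axin2 measured 2.36 and 2.43 CPM with shNC and 1.09 and 0.995 CPM with shMyh9#2. Tcf7 and Znrf3 had 0.566 to 5.84 CPM and 2.33 to 7.44 CPM in the hairpin libraries and were called in no comparison.

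**Figure D3:**
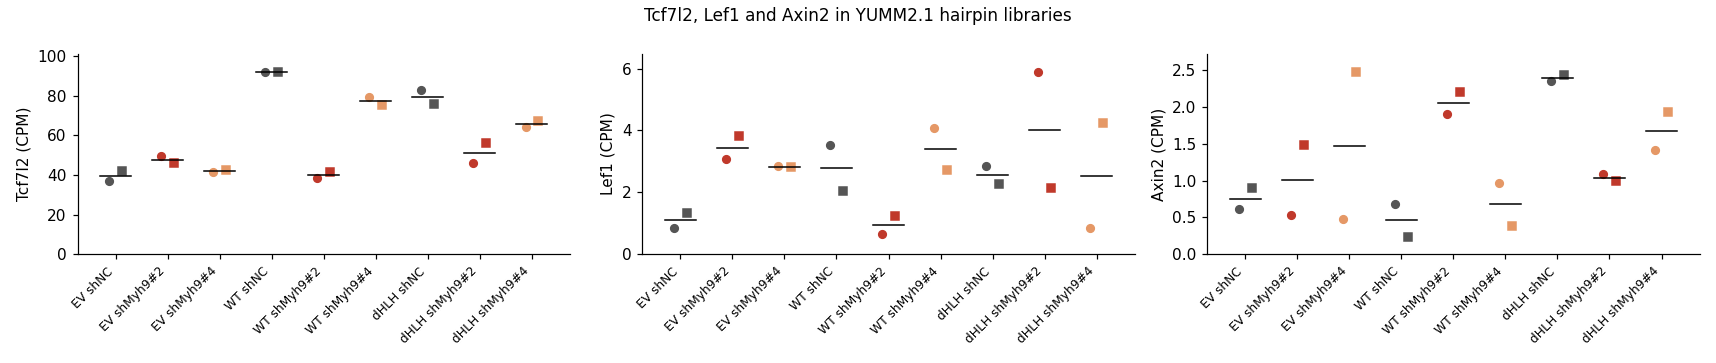
Levels of Tcf7l2, Lef1 and Axin2 in CPM (vertical axes, linear from 0) in the 9 YUMM2.1 groups with a hairpin (horizontal axis), with a circle for replicate 1, a square for replicate 2 and a line for the mean. Tcf7l2 is at 75.6 to 92.0 CPM in the WT-Bmal1 and dHLH-Bmal1 shNC libraries and at 36.8 and 41.8 CPM in the EV shNC libraries.

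Ordered by group mean, neighbouring groups were mostly not separated. For Ctnnb1, B16-F10 Ctrl (1075 ± 29.9 CPM) and Bmal1 KO (1028 ± 36.0) led. The 3 YUMM1.7 groups followed with overlapping libraries, at 426 ± 19.2, 421 ± 9.49 and 409 ± 9.19 CPM. The EV and WT-Bmal1 groups of YUMM2.1 and the 3 aC3 groups overlapped in a chain from 393 to 354 CPM, and YUMM2.1 dHLH-Bmal1 (310 ± 3.31 CPM) stood with the hairpin groups. For Axin2, the 2 B16-F10 groups led at 10.3 ± 2.72 and 5.89 ± 4.82 CPM and overlapped, YUMM2.1 dHLH-Bmal1 followed at 3.57 ± 0.111 CPM, and the 3 YUMM1.7 groups were among the lowest 4 at 0.612 ± 0.285, 0.268 ± 0.129 and 0.133 ± 0.188 CPM (SD, n = 2 each). For Tcf7l2, WT-Bmal1 shNC (91.9 ± 0.157 CPM) led without overlap, and from YUMM1.7 WT-Bmal1 (60.3 ± 0.779) to YUMM2.1 EV (50.3 ± 0.246) each group overlapped with the next. For Lef1, Tcf7 and Znrf3 each group overlapped with the next in order, apart from a gap below B16-F10 Ctrl for Znrf3 (17.4 ± 2.66 CPM), a gap below B16-F10 Ctrl for Tcf7 (1.42 ± 0.0448 CPM), and gaps below YUMM1.7 EV, YUMM2.1 dHLH-Bmal1 and aC3 dHLH-Bmal1 for Lef1.

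The rest of the pathway was read in lists written by role, which were chosen with earlier results of these data known. Between YUMM2.1 EV and YUMM1.7 EV, 36 of the 68 genes tested in these lists were called, 19 higher and 17 lower, where 32.7% of all genes were called, 18% higher and 14.7% lower. Each list is small, and its counts are to be read beside these shares. Of 10 antagonists and R-spondins tested 6 were lower in YUMM2.1 EV and 0 higher, with a median log2 difference of -1.99, beside 0.02 over all genes tested. Rspo2, which encodes an R-spondin and not an antagonist, is among the 6. Dkk2, a secreted Lrp-binding antagonist, measured 2.25 and 16.4 CPM against 298 and 310 CPM (log2 difference -5.06, SE 0.65, edgeR adjusted p = 1.2e-05). The difference was -7.05 without YUMM2.1-EV replicate 2, the library in doubt with 16.4 CPM, and -4.19 without replicate 1. Frzb, a secreted Frizzled-related protein, measured 0.658 ± 0.0133 CPM against 12.9 ± 2.16 CPM (-4.25, edgeR adjusted p = 3.6e-08). Of 6 ligands 2 were higher and 2 lower, with a median of -1.76. Wnt7b measured 28.9 and 51.7 CPM against 9.05 and 7.20 CPM (2.32, edgeR adjusted p = 6.5e-05), Wnt4 rose by 0.75 (edgeR adjusted p = 3.5e-04), and Wnt5a, best known outside the β-catenin branch, fell from 30.3 ± 0.236 CPM to 1.94 ± 1.09 CPM (-3.98, edgeR adjusted p = 6.5e-07, and -4.66 without YUMM2.1-EV replicate 2).

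Of 15 receptors, 4 were higher and 2 lower in YUMM2.1 EV, with a median of 0.21. Lgr6, a receptor for R-spondins, measured 78.6 ± 0.335 CPM against 0.318 ± 0.0526 CPM (7.92, edgeR adjusted p = 2.6e-10), and Lrp5, a Wnt co-receptor, 11.8 ± 0.150 CPM against 0.135 ± 0.0594 CPM (6.35, edgeR adjusted p = 5.1e-09), a ratio of 86.3 on 250 and 3 counts with a 95% exact interval of 29.2 to 421. The Frizzled receptors Fzd5 and Fzd4 were lower, by -2.32 (edgeR adjusted p = 1.5e-04) and -2.10 (edgeR adjusted p = 0.0020). Of 13 genes of the destruction complex and cytoplasm, 2 were higher and 4 lower (median 0.00): Apc2 (230 counts against 1, a ratio of 238 with a 95% exact interval of 42.3 to 9445) and Dvl3 (0.80) were higher, and Tnks (-0.52) and Axin1 (-0.45) were among the lower. The calls of Dvl3, Tnks and Axin1 depended on single libraries, since the edgeR adjusted p without YUMM2.1-EV replicate 1 was 0.14 for Dvl3, 0.077 for Tnks and 0.13 for Axin1, and without YUMM1.7-EV replicate 1 it was 0.062, 0.070 and 0.21. It was 0.060 for Dvl3 without YUMM1.7-EV replicate 2 and 0.053 for Axin1 without YUMM2.1-EV replicate 2.

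Of 13 nuclear partners, 7 were higher and 3 lower in YUMM2.1 EV, with a median of 0.42. The Groucho-type corepressors Tle2 (2.06, edgeR adjusted p = 5.7e-06) and Tle4 (1.09, edgeR adjusted p = 6.4e-04) were higher, and Tcf7l1, the remaining TCF factor (-1.24), and Ctnnbip1, an inhibitor of β-catenin binding to TCF (-1.10), were lower. Of 11 other reported targets tested, 4 were higher and 0 lower, with a median of 0.61. Nkd2, the paralog of Nkd1, measured 162 and 178 CPM in YUMM2.1 EV against 0.177 and 0.467 CPM in YUMM1.7 EV (9.04, SE 0.35, edgeR adjusted p = 8.9e-12, and 9.82 without YUMM1.7-EV replicate 2), while Nkd1 had 0 counts in both groups. Pou3f2, a neural and melanoma transcription factor, measured 46.5 ± 3.59 CPM against 1.86 ± 0.253 CPM (4.65, edgeR adjusted p = 1.5e-11). With the labels exchanged, 36.5% of all genes were called. The counts were then 2 higher and 2 lower ligands, 4 and 3 receptors, and 0 and 6 antagonists or R-spondins. They were 3 and 4 destruction complex genes, 6 and 3 nuclear partners, and 4 and 0 other targets.

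Between B16-F10 Ctrl and YUMM1.7 EV, 48 of the 68 genes tested in these lists were called, 17 higher and 31 lower, where 49.6% of all genes were called, 24.5% higher and 25% lower. The counts of the ligands and of the destruction complex are near that share. Of 6 ligands 0 were higher and 3 lower (median -4.03), beside 0.01 over all genes. Wnt5a was at 0 in B16-F10 Ctrl and at least 209-fold lower, and Wnt7b had 2 counts against 179, a ratio of 169 with a 95% exact interval of 46.1 to 1406. Of 15 receptors 5 were higher and 4 lower (median 0.89): Lrp5 (240 counts against 3, a ratio of 42.4 with a 95% exact interval of 14.3 to 207) and Fzd6 (5.14) were higher, Fzd8 was at least 47.1-fold lower and Fzd5 was lower by -1.78. Fzd6 rested on 5 counts in YUMM1.7 EV, all in replicate 2, and its fitted value was 4.13 without replicate 1 and 9.71 without replicate 2. Of 10 antagonists and R-spondins 2 were higher and 6 lower (median -2.26), with Rspo2 again among the lower. Dkk3 measured 57.1 and 47.2 CPM against 0.443 and 0.0934 CPM (7.53, edgeR adjusted p = 7.0e-08), and Dkk2 measured 0.504 ± 0.439 CPM against 304 ± 8.64 CPM (-9.20, edgeR adjusted p = 1.1e-07), while Sfrp1 had 412 counts in YUMM1.7 EV and 2 in B16-F10 Ctrl, a ratio of 389 with a 95% exact interval of 107 to 3223. Dkk3 ranged from 6.83 without YUMM1.7-EV replicate 2 to 8.98 without its replicate 1, and Dkk2 from -10.5 without B16-F10 Ctrl replicate 1 to -8.55 without its replicate 2. The higher level of Frzb (0.62, edgeR adjusted p = 0.033) was lost without B16-F10 Ctrl replicate 2 (edgeR adjusted p = 0.25) and without YUMM1.7-EV replicate 2 (0.26), and DESeq2's adjusted p was 0.067.

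Of 13 destruction complex genes 2 were higher and 5 lower in B16-F10 Ctrl (median -0.30). Apc, the scaffold that holds β-catenin for degradation, measured 167 ± 4.67 CPM against 70.2 ± 7.13 CPM (1.26, edgeR adjusted p = 3.6e-07) and Gsk3b, its kinase, 477 ± 38.8 CPM against 240 ± 5.77 CPM (0.99, edgeR adjusted p = 6.5e-08). Dvl1 (-1.59) and Amer1 (-1.40) were lower. Of 13 nuclear partners 3 were higher and 10 lower (median -0.83), with Pygo1 (2.79) and Tle4 (1.16) higher, Ctnnbip1 lower (-2.60) and Tle2 down from 88 counts to 2, a ratio of 83.1 with a 95% exact interval of 22.3 to 697. Of 11 other targets 5 were higher and 3 lower (median 0.27). Mitf, the master regulator of melanocytes, measured 869 and 790 CPM against 12.5 and 13.1 CPM (6.02, SE 0.16, edgeR adjusted p = 4.1e-14). Tnfrsf19 was at least 24.9-fold higher, Ccnd1, which encodes cyclin D1, measured 242 ± 1.69 CPM against 2214 ± 41.4 CPM (-3.19, edgeR adjusted p = 1.2e-11), and Tbx3 had 1 count against 1738, a ratio of 3282 with a 95% exact interval of 588 to 129707.

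With dHLH-Bmal1 against EV in YUMM2.1, 12 of the 58 genes tested in these lists were called, 4 higher and 8 lower, where 13.2% of all genes were called, 6.51% higher and 6.72% lower. Of 9 other targets tested 4 were lower and 0 higher (median -0.06), beside -0.01 over all genes. Nkd2 measured 42.4 and 46.7 CPM with dHLH-Bmal1 against 162 and 178 CPM in EV (-1.91, SE 0.13, edgeR adjusted p = 0.0010), and Pou3f2 13.3 ± 0.736 CPM against 46.5 ± 3.59 CPM (-1.78, edgeR adjusted p = 0.0022). Of 14 receptors 1 was higher and 2 lower (median -0.27): Lgr6 measured 12.5 and 13.4 CPM against 78.4 and 78.8 CPM (-2.58, edgeR adjusted p = 6.2e-04), Lgr5 was lower (-1.63, edgeR adjusted p = 0.011) and Fzd4 higher (2.07, edgeR adjusted p = 0.038). Of 5 antagonists and R-spondins 2 were higher (median 1.1), Tpbg (2.38, edgeR adjusted p = 0.011) and Sfrp1 (1.1, edgeR adjusted p = 0.045). Of 13 nuclear partners 1 was higher and 2 lower (median -0.36): Tcf7l1 (0.55, edgeR adjusted p = 0.049), Tle4 (-1.13, edgeR adjusted p = 0.029) and Tle2 (-1.05, edgeR adjusted p = 0.016). Of 4 ligands and of 13 destruction complex genes 0 were called.

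Nkd2, Pou3f2 and Lgr6 were called whichever library was left out, and the other named genes were not. Without EV replicate 1 the edgeR adjusted p was 0.16 for Fzd4, 0.061 for Tpbg, 0.20 for Sfrp1, 0.19 for Tcf7l1, 0.092 for Tle4 and 0.078 for Tle2. Without EV replicate 2 it was 0.14 for Tcf7l1 and 0.060 for Tle4. Without dHLH-Bmal1 replicate 1 it was 0.11 for Fzd4, 0.13 for Sfrp1, 0.16 for Tcf7l1 and 0.0501 for Tle2, and without dHLH-Bmal1 replicate 2 it was 0.10 for Fzd4, 0.056 for Lgr5, 0.056 for Tpbg, 0.11 for Sfrp1, 0.098 for Tcf7l1, 0.12 for Tle4 and 0.069 for Tle2. With the labels exchanged, 28.7% of all genes were called. Of the lists, 2 ligands, 1 receptor, 3 antagonists or R-spondins, 1 destruction complex gene, 2 nuclear partners and 1 other target were higher. In the same order 0, 7, 1, 0, 4 and 4 were lower. With both doubtful libraries removed, 1, 1, 3, 0, 0 and 0 were higher and 0, 3, 0, 0, 2 and 2 lower, where 11.9% of all genes were called.

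With shMyh9#2 against shNC in EV cells, 3 of the 58 genes tested in these lists were called, or 5.17%, which is not above the 6.65% of all genes (4.2% higher and 2.46% lower). Dkk2 rose from 13.7 ± 0.887 CPM to 31.4 ± 2.93 CPM (1.19, edgeR adjusted p = 4.2e-05), Id2, an inhibitor of helix-loop-helix factors, from 58.6 ± 4.06 CPM to 97.9 ± 2.33 CPM (0.74, edgeR adjusted p = 0.0020), and Ccnd1 fell from 5056 ± 176 CPM to 3634 ± 276 CPM (-0.48, edgeR adjusted p = 0.016). The call of Ccnd1 was lost without EV shNC replicate 1 (edgeR adjusted p = 0.14), EV shNC replicate 2 (0.064) or EV shMyh9#2 replicate 1 (0.21), and that of Dkk2 in the fit of all 40 libraries (0.16). Of 4 ligands, 13 receptors, 13 destruction complex genes and 13 nuclear partners tested 0 were called. The other 5 antagonists or R-spondins and 7 targets were not called either.

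**Figure D4:**
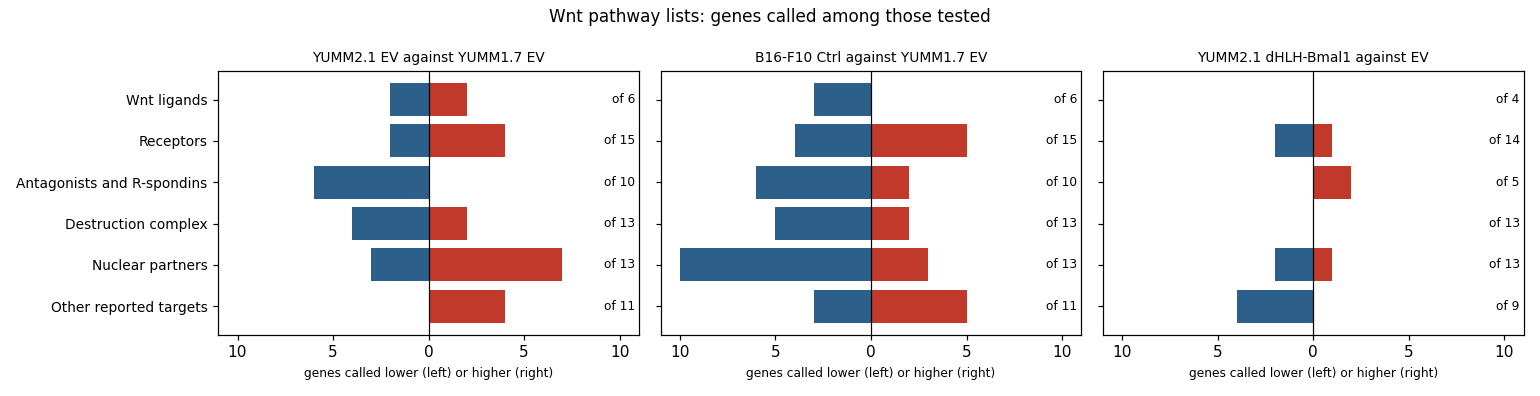
Number of genes called lower (left of 0) and higher (right of 0) in each Wnt pathway list (vertical axis) in 3 comparisons, one per panel, with the number of genes tested at the right. In YUMM2.1 EV against YUMM1.7 EV the list of antagonists and R-spondins has 6 genes lower and 0 higher. With dHLH-Bmal1 against EV the list of other targets has 4 lower and 0 higher.

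Over the 20 group means, the level of Ctnnb1 moved with that of Znrf3 and less with that of Axin2. The correlation of log2 CPM was 0.76 between Ctnnb1 and Znrf3 (Spearman 0.86, and 0.84 by Pearson without the B16-F10 groups, n = 18). Between Ctnnb1 and Axin2 it was 0.48 over 20 groups (Spearman 0.13) and -0.35 over the 18 groups without B16-F10. Axin2 and Lef1 had -0.67. The hairpin groups had Ctnnb1 means of 263 to 309 CPM and Znrf3 means of 3.73 to 6.39 CPM. The YUMM2.1, aC3 and YUMM1.7 groups without a hairpin had 310 to 426 CPM and 3.91 to 11.6 CPM. The correlation within each of these sets was not computed. All these values are descriptions over groups that share lines, constructs and libraries.

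Among 14144 genes with a mean of at least 10 counts, those most like Ctnnb1 over the 20 groups by Pearson correlation were Mtmr3 (0.972), Sptlc2 (0.970), Pax3 (0.967), Gm37758 (0.966) and Cdk15 (0.966). Without B16-F10 these 5 had 0.782 to 0.915, so part of the likeness is the step between B16-F10 and the other lines. Those most like Axin2 were Abhd18 (0.884), Akr1b10 (0.873), Slc43a2 (0.871), Gm48182 (0.865) and Rapgef4 (0.861), with 0.778 to 0.825 without B16-F10. By Spearman correlation 2 of these 5 remained for Axin2 and 0 of 5 for Ctnnb1.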

How the data were processed

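QuantSeq FWD 3′ libraries of 3 mouse melanoma lines were read as single ends. The authors aligned them with bowtie2 to mm10 and counted genes with RSEM (version 1.2.3 in the submitters' processing notes), and the deposited values are whole-number counts per gene with no normalization. Whether counting used strand is not given in the sources used here. Ensembl identifiers were matched to symbols for 51596 of 51789 genes. CPM were computed with edgeR 4.0.16 (R 4.3.3, limma 3.58.1) after TMM scaling over 40 libraries. Tests were edgeR's quasi-likelihood test after its expression filter, fitted by line, over the 9 hairpin groups, over the 22 libraries without a hairpin or over all 40, with Benjamini-Hochberg adjustment and a threshold of 0.05. DESeq2 1.42.0 was an alternative. Each fit was tested on simulated data with the same spread for all genes and changes placed only in better-read genes. That test does not cover the listed genes with low counts. Tables were made with Python 3.11.15 and pandas 2.3.3.

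Groups were taken from the sample labels, and 1 further allele of YUMM2.1 is not reported here. Totals of 3643332 to 22970049 counts limit the low genes, since 3 counts correspond to 0.123 to 0.849 CPM. Count ratios carry exact 95% intervals. A fold against a group at 0 was computed with a floor of 3 counts in each library. The 10 genes, the pathway lists, the marker lists and the tests were chosen with earlier results of these data known. In each pathway list, the genes named are up to 2 called in each direction with the largest log2 change and a mean of at least 10 counts, and the genes most like Ctnnb1 and Axin2 are the 5 with the highest Pearson correlation over group means, among genes with a mean of at least 10 counts.

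Replicate numbers were checked for pairing by the correlation of same-numbered libraries' deviations from their group means. In YUMM2.1 without a hairpin all 3 pairs of groups exceeded 0.1 as labelled (0.181 to 0.393), so the blocked value is given there where it changes a call. With the labels of the 2 doubtful libraries exchanged the mean correlation was 8.4e-05, so the block and the exchange are not independent settings. Exchanging the labels of 2 YUMM2.1 libraries, removing both, and the differences of effects between EV and WT-Bmal1 cells and between shNC cells and cells without a hairpin were chosen after seeing the data. Other alternatives were DESeq2 size factors, no filter on low counts, the replicate block and leaving out each library.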

Additional observations from a re-analysis of the deposited data

Results flagged for a closer look

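Differences of effects in Tcf7l2 stood out by a test of the difference itself. The shMyh9#2 effect was higher in EV than in dHLH-Bmal1 cells by 0.91 on the log2 scale and higher than in WT-Bmal1 cells by 1.49. The WT-Bmal1 effect was higher in shNC cells than in cells without a hairpin by 1.28, and the dHLH-Bmal1 effect by 0.95. All of these differences but the first, between EV and dHLH-Bmal1 cells, were chosen after seeing the data.

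In 5 further cases every library of one setting lay on one side of its controls and every library of another setting on the opposite side, and the difference was not tested by this rule. For Axin2, shMyh9#2 against shNC gave 2.16 in WT-Bmal1 cells and -1.20 in dHLH-Bmal1 cells, a difference of 3.36. For Lef1, WT-Bmal1 against EV gave -0.32 in YUMM1.7 and 1.34 in shNC cells, a difference of -1.67. For Tcf7l2, WT-Bmal1 against EV gave -0.08 in YUMM2.1, 0.32 in aC3 and 0.13 in YUMM1.7, differences of -0.40 and -0.21. Both Tcf7l2 cases rest on the YUMM2.1 libraries in doubt, and with the labels exchanged the YUMM2.1 log2 fold change was 0.048 and its libraries overlapped. For Ctnnb1, WT-Bmal1 against EV gave -0.05 in aC3 and 0.06 in shNC cells, a difference of -0.11.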

How the results depend on the processing

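Of the recomputed counts of listed genes called, 240 stayed within 1.5 times the reported count and 19 moved. Of the recomputed log2 fold changes, 930 kept direction and call, 12 reversed, 18 gained and 47 lost a call, and the cause was not tested. The fit of all 40 libraries called 1 listed gene in B16-F10 Bmal1 KO against Ctrl, 1 in YUMM2.1 dHLH-Bmal1 against EV and 1 in aC3 EV against YUMM2.1 EV, where 0 were reported. Without the filter on low counts 1 was called in aC3 dHLH-Bmal1 against EV and 2 in YUMM2.1 EV against YUMM1.7 EV. DESeq2's Wald test called 1 in aC3 EV against YUMM2.1 EV. With the YUMM2.1 labels exchanged 2 were called in dHLH-Bmal1 against EV and 3 in YUMM2.1 EV against YUMM1.7 EV. Leaving out 1 library gave 0 to 2 in B16-F10 Bmal1 KO against Ctrl, 0 to 1 in dHLH-Bmal1 shMyh9#2 against shNC, 0 to 1 in the difference of shMyh9#2 effects between EV and dHLH-Bmal1 cells, and 0 to 2 in YUMM2.1 EV against YUMM1.7 EV. By Spearman correlation 2 of the 5 genes most like Axin2 and 0 of those most like Ctnnb1 were shared.

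All reversals were in YUMM2.1 WT-Bmal1 against EV, where no gene was called. With the labels exchanged the log2 fold change was -0.59 for Axin2, 1.84 for Lef1 and 0.048 for Tcf7l2, and with both libraries removed -0.54 for Axin2 and 1.23 for Lef1. Leaving out 1 library gave -0.29 to 0.46 for Axin2, -2.28 to 0.44 for Lef1, -0.55 to 0.67 for Tcf7 and -0.88 to 0.095 for Znrf3.

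The replicate block called 1 listed gene in aC3 dHLH-Bmal1 against EV (Znrf3, edgeR adjusted p = 0.045), 1 in YUMM2.1 dHLH-Bmal1 against EV (Ctnnb1, 0.025) and 1 in aC3 EV against YUMM2.1 EV (Tcf7l2, 0.044), and moved no other of 23 counts. Same-numbered libraries had mean correlations of 0.318 in YUMM2.1, 0.0904 in B16-F10, 0.0536 in aC3, -0.0025 in YUMM1.7 and -0.0038 in the hairpin groups, so outside YUMM2.1 they share only a number. With the YUMM2.1 labels exchanged the mean was 8.4e-05. Depth limits Lef1, Axin2, Tcf7 and Notum, whose groups often rest on under 100 counts.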
